A study of Gallus gallus with 24 samples.

Results

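Peri-hatch chicken livers, taken at embryonic day 20 (E20) and at day 1 after hatching (D1), were set against livers of the 4 earlier and later ages, E16, E18, D3 and D9. The group was defined by age alone, as 8 arrays (4 at E20 and 4 at D1) of the 24 in the series, with 16 arrays in the comparison. Expression was measured on the Affymetrix Chicken Genome Array as log2 RMA values, in which a difference of 1 is a doubling of the signal. Of 38439 probe sets tested, 27168 carried a single gene symbol, and they covered 13009 genes. Each gene was represented by the probe set with the highest mean level, and 7334 genes had more than 1 to choose from.

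All birds were Ross x Ross broilers, a meat-type chicken, and all were males by the labels, with 4 livers per age and 1 liver per array. E20 livers came from embryos still in the egg, and D1 livers from hatchlings that had not been fed and had not left the hatching incubator. The sources differ on how long these hatchlings were held there before sampling, the labels giving a full day and the study's methods a few hours, so that the age at D1 is uncertain by that much. E16 and E18 livers also came from embryos in the egg, while D3 and D9 livers came from chicks vaccinated against Marek's disease virus, moved to a heated brooder and fed a commercial starter ration. Feeding, brooding and vaccination therefore fell between D1 and D3 and cannot be told apart from age. The label for developmental stage read E16 for the E18 and E20 samples, and the ages were taken from the sample titles.

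Around hatching a chick stops living on yolk lipid delivered inside the egg, begins to breathe air, and for a short time depends on residual yolk and on its own glucose production until it eats a diet rich in carbohydrate. The liver of the late embryo burns fatty acids and stores cholesteryl ester from yolk, whereas the liver of the fed chick synthesises fat. Corticosterone, the glucocorticoid of birds, and thyroid hormone are both known to peak in the blood of chicks near hatching.

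The array medians lay between 5.43 and 5.55 and all values between 3.05 and 15.24. The 11 hepatocyte markers had array means of 12.65 to 12.79 at E20 and D1 and 12.62 to 12.81 at the other ages, and none was called in any contrast by limma, although 5 had an unadjusted p under 0.05 in peri-hatch against the other ages (largest log2 ratio 0.24 in size). Of these 5, 4 also had an adjusted p of 0.05 or less and missed a call only by the size of their ratio. Albumin (ALB) was near the top of the scale on every array, at 14.89 to 15.24. Of the other marker lists, those of lymphocytes (14 genes), stellate cells and fibroblasts (18), endothelium (13), cholangiocytes (7), pancreas (10) and feather keratin and skin (6) had no member called in peri-hatch against the other ages, with 2, 7, 6, 4, 1 and 1 members at an unadjusted limma p under 0.05. In the same order, 0, 4, 2, 3, 1 and 0 members had an adjusted p of 0.05 or less, with ratios too small for a call. The macrophage list had 1 of 13 genes higher. 2 arrays, both outside the peri-hatch group, stood apart. E18 replicate 2 had a HINTW level of 12.17, against 5.26 to 6.05 on the other 23 arrays, although HINTW lies on the female-specific W chromosome and the sample was labelled male. D9 replicate 1 carried heart transcripts, with NPPA (atrial natriuretic peptide) at 8.11 and ACTC1 (cardiac actin) at 8.69, against at most 5.23 and 5.84 elsewhere. Without both arrays, the counts of genes given next became 169 higher and 199 lower, with 55 and 46 of them called against both sides.

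The question was which genes changed only around hatching rather than moving steadily with age. A gene was called where its adjusted p from limma was at or below 0.05 over all 38439 probe sets and its log2 ratio was at least 0.75 in size. In E20 and D1 livers against the 4 other ages, 172 genes were higher (1.32% of the 13009) and 197 were lower (1.51%). Against E16 and E18 alone, 335 were higher (2.58%) and 302 were lower (2.32%). Against D3 and D9 alone, 403 were higher (3.1%) and 549 were lower (4.22%). Counts of called members in the gene lists below stand against these shares of all genes. These contrasts share the 8 peri-hatch arrays, so their calls are not independent of each other.

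A ratio against the mean of 4 ages can arise from a gene that simply differed between embryos and chicks, so each called gene was also tested against each side. Of the 172 higher genes, 56 were higher than both the earlier and the later ages, 49 than the earlier ages only and 67 than the later ages only. Of the 197 lower genes, 47 were lower than both sides, 24 than the earlier ages only and 126 than the later ages only. Among those that differed in this way from 1 side only, 3 higher and 11 lower genes were called in the opposite direction on the other side. The 56 and the 47, 0.43% and 0.361% of all genes, are called transient here. Their median log2 ratios were 1.34 (0.81 to 3.16) and -1.33 (-2.78 to -0.78). In 18 of the higher genes (0.138% of all genes) and 20 of the lower genes (0.154%), all 8 peri-hatch arrays also lay beyond all 16 others.

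**Figure D1:**
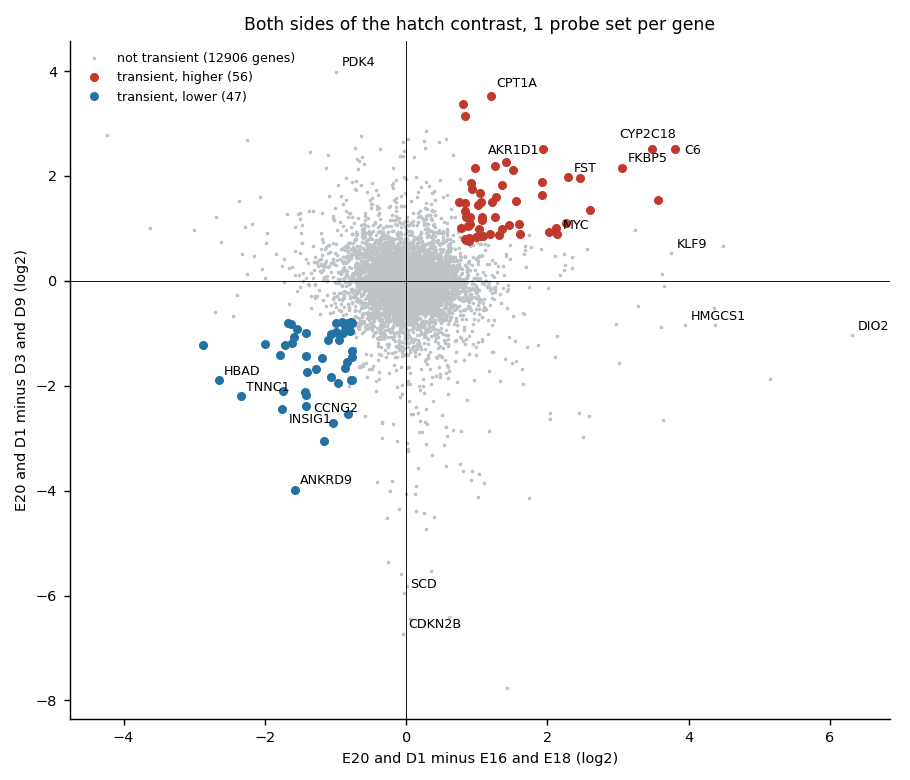
Each point is 1 gene, plotted by its log2 ratio in E20 and D1 against E16 and E18 (x axis) and against D3 and D9 (y axis). The 56 transient higher genes lie at upper right and the 47 transient lower genes at lower left, while KLF9, DIO2 and HMGCS1 lie near the x axis and SCD and CDKN2B near the y axis because they differed mainly from 1 side.

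The largest transient ratio belonged to C6, a component of the membrane attack complex of complement, the set of liver-made plasma proteins that tags and lyses microbes. C6 had 9.61, 10.07 and 10.96 (lowest, median, highest) on the 8 peri-hatch arrays, against 5.73, 7.06 and 8.30 on the 16 others, a log2 ratio of 3.16 ± 0.18 (SE, adjusted p = 2.35e-11). The difference of D1 from E20 was -0.01 ± 0.29 (SE), and the ratio was 3.81 against the earlier and 2.51 against the later ages. Of its 3 probe sets 2 were called higher, while the third had a log2 ratio of -0.04.

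C1S, the protease of the first complement complex, had 12.36, 12.48 and 13.10 in peri-hatch livers and 10.05, 11.11 and 11.90 at the other ages, with no overlap (ratio 1.57 ± 0.10, adjusted p = 2.28e-10). C8B, a further part of the membrane attack complex, had 12.53, 12.81 and 13.24 against 11.31, 11.73 and 12.34, again with no overlap (ratio 1.04 ± 0.08, adjusted p = 1.92e-09). Its 2 other probe sets were not called, and the smallest of the 3 ratios was 0.13. C1R, the partner protease of C1S, was higher than the 4 other ages (0.88 ± 0.09, adjusted p = 3.24e-07), but its ratio against D3 and D9, 0.70, was under the limit. C8A (0.78) and MASP2 (1.00), a protease of the lectin pathway, were higher than the later ages and were not called against E16 and E18. MASP2 was called by 3 of its 5 probe sets, the smallest ratio being 0.06. C8A was close to the limit and fell under it without E20 replicate 2 (0.746).

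Of the 21 complement genes measured, 6 were higher in peri-hatch livers and none was lower, against 1.32% and 1.51% of all genes. The median log2 ratio of the list was 0.46, against 0 for all 13009 genes. The other 15 included C3 and C5, the central components, with ratios of 0.44 and 0.52, and C1QA, C1QB and C1QC, the recognition subunits that macrophages make, with ratios of 0.09, -0.06 and 0.07. The mean level of the list was 9.76 and 10.20 in E16 and E18 livers, 10.81 and 10.45 in E20 and D1 livers, and 9.89 and 10.37 in D3 and D9 livers. The 4 E20 arrays, at 10.61 to 10.91, were all above the 16 arrays of the other ages, at 9.57 to 10.52, whereas the D1 arrays, at 10.26 to 10.64, overlapped those of D9. Against the same shares of all genes, the list of plasma and acute phase proteins had 6 of 33 genes higher and 1 lower (median 0.18). Among them ORM1, an acute phase glycoprotein, was at 14.01 to 14.37 in peri-hatch livers and at 11.11 to 13.95 at the other ages, but its ratio against D3 and D9 was 0.65, under the limit.

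**Figure D2:**
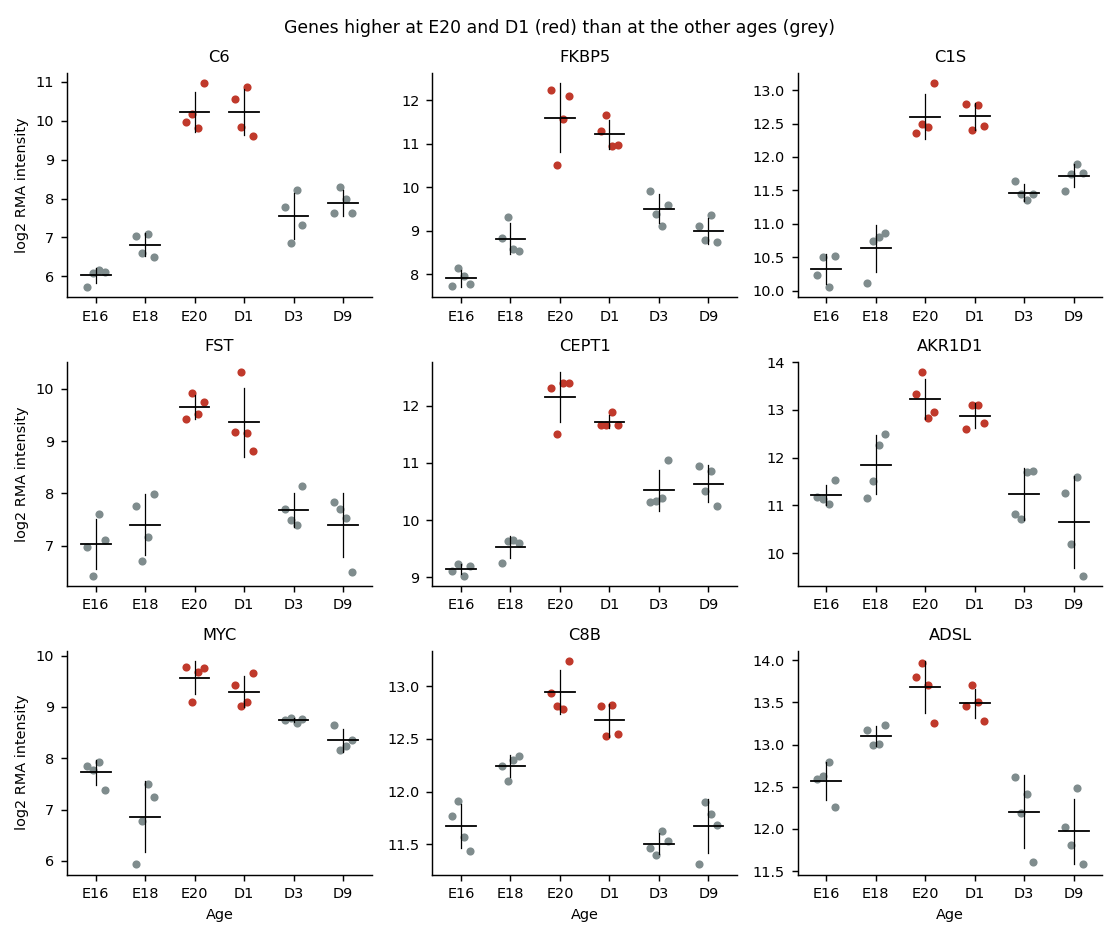
Log2 RMA level of 9 genes on each of the 24 arrays by age, with E20 and D1 in red, the 4 other ages in grey, a bar for the mean and a line for the SD of 4 arrays. For every gene shown, the 8 red points lie above all 16 grey points.

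FKBP5, a co-chaperone of the glucocorticoid receptor whose gene is a standard target of that receptor, followed C6 among the non-overlapping genes. It had 10.51, 11.43 and 12.24 in peri-hatch livers and 7.73, 8.80 and 9.91 at the other ages (ratio 2.61 ± 0.17, adjusted p = 2.48e-10). All 3 of its probe sets were called higher, with ratios of 2.61 to 3.06. E20 replicate 2, at 10.51, was the lowest of the 8 arrays and still 0.60 above the highest of the others. TULP1 and LHFPL5, near FKBP5 in the RefSeq annotation, were also transient. TULP1, an immediate neighbour, had a ratio of 1.14 ± 0.19, and LHFPL5, with 1 gene between, had 1.28 ± 0.11. Neighbours were sought among the transient genes only, so other genes nearby are not described. TULP1 was dim, at 4.92 to 7.48 in peri-hatch livers and 4.38 to 4.99 at the other ages, and both neighbours overlapped the other ages on at least 1 array. Both are known mainly from retina and inner ear.

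KLF9, a transcription factor induced by glucocorticoid and thyroid hormone, was on a different course. It had 8.03 to 9.42 at E20 and D1 and 4.76 to 8.99 at the other ages, with a ratio of 3.75 against E16 and E18 (adjusted p = 6.92e-12) but only 0.53 against D3 and D9. Its level was thus high from E20 onward. DIO2, the deiodinase that makes active thyroid hormone, was also high from E20 onward. It had 9.80 to 12.87 in peri-hatch livers, 3.57 to 7.92 at E16 and E18 and 10.82 to 12.96 at D3 and D9. Unlike for KLF9, the level at D3 and D9 (median 12.25) was above that of most E20 and D1 arrays. The 7.92 came from E18 replicate 2, 1 of the arrays that stood apart, and the next highest was 5.63. DIO2 was called by 1 of its 2 probe sets, the smaller ratio being 0.505. Of 17 glucocorticoid-responsive genes, 4 (FKBP5, KLF9, MT4 and IGFBP1) were higher against the other ages and 1 (ANGPTL4) was lower, against 1.32% and 1.51% of all genes, with a median of 0.32, and only FKBP5 was transient.

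FST, follistatin, a secreted inhibitor of activin, had 8.81, 9.47 and 10.32 in peri-hatch livers and 6.43, 7.52 and 8.14 at the other ages (ratio 2.13 ± 0.20, adjusted p = 1.01e-07). MYC, a transcription factor that drives growth and ribosome production, had 9.01, 9.54 and 9.77 against 5.93, 8.05 and 8.79 (ratio 1.51 ± 0.14, adjusted p = 1.3e-07). Neither gene overlapped, and neither was called between D1 and E20 (-0.29 ± 0.33 for FST and -0.27 ± 0.24 for MYC). For MYC the gap was narrow on the later side, since D3 livers were at 8.68 to 8.79. IGFBP2, an insulin-like growth factor binding protein, was higher by 0.80 than at E16 and E18 and by 3.37 than at D3 and D9, and its ranges overlapped. It was the only transient member of the 28 genes of the insulin and IGF axis, of which 3 were higher than the other ages and none lower (median 0.15). MYC was the only transient member of the 30 immediate early and stress genes, of which 1 was higher and 1 lower (median -0.02).

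Enzymes formed another set of non-overlapping genes. CEPT1, which makes phosphatidylcholine and phosphatidylethanolamine, had 11.50, 11.78 and 12.40 in peri-hatch livers and 9.03, 9.95 and 11.05 at the other ages (ratio 1.98 ± 0.11, adjusted p = 3.65e-11). It was called by 1 of its 3 probe sets, the smallest ratio being 0.16. AKR1D1, the 5-beta reductase of bile acid synthesis and steroid hormone breakdown, had 12.60, 13.03 and 13.79 against 9.53, 11.22 and 12.49 (ratio 1.82 ± 0.22, adjusted p = 4.68e-06). IP6K2, an inositol phosphate kinase, had 10.14 to 11.58 against 8.19 to 9.84 (ratio 1.78 ± 0.14), and all 3 of its probe sets were called.

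Nitrogen metabolism contributed ADSL, an enzyme of purine synthesis, the route by which birds dispose of nitrogen as uric acid, and UROC1 and HAL, which act in succession in histidine breakdown. ADSL was at 13.25 to 13.97 in peri-hatch livers and 11.58 to 13.23 at the other ages (ratio 1.12 ± 0.12). UROC1 was at 9.88 to 10.53 against 8.01 to 9.51 (ratio 1.09 ± 0.13), without overlap. HAL was transient too (1.16 ± 0.19), with D1 livers at 10.79 to 11.24 above E20 livers at 9.58 to 9.98. Its E20 livers lay within the range of E16 and E18 (8.22 to 10.30), and D3 and D9 livers were at 8.26 to 9.34. At E20 alone HAL was not called against the mean of the 4 other ages (0.56). In the lists, 2 of 17 purine and uric acid genes (ADSL and NT5C2) were higher with a median of -0.05, and 3 of 41 amino acid breakdown genes were higher and 3 lower with a median of -0.03, so most of either pathway was not called.

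CPT1A, the gatekeeper of fatty acid entry into mitochondria, was transient with a large step on the later side. It had 8.46 to 10.75 in peri-hatch livers, 7.76 to 8.97 at E16 and E18 and 5.59 to 6.78 at D3 and D9, a ratio of 1.21 against the earlier ages and 3.52 against the later ages. PDK4, the kinase that shuts pyruvate out of oxidation, was called higher against the mean of the 4 ages (1.50), yet its ratio was -0.99 against E16 and E18 and 3.99 against D3 and D9. It was not transient, and its 2 peri-hatch ages differed: D1 livers, at 10.53 to 11.38, lay between the embryos and the fed chicks, whereas E20 livers, at 12.74 to 13.11, were within the range of E16 and E18 (12.56 to 13.42). Of 29 genes of fatty acid oxidation and ketogenesis these were the only 2 called against the mean of the 4 other ages. Against E16 and E18, 2 were higher and 3 lower, and against D3 and D9, 6 were higher and 1 lower. LPL, lipoprotein lipase, was higher by 1.53 than the 4 other ages, but its 0.67 against E16 and E18 was under the limit, and APOA5, an apolipoprotein that promotes triglyceride clearance, was transient (1.26 ± 0.21) with overlapping ranges.

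Some of the transient genes were low everywhere else. REG1A, a secreted lectin known from pancreas, was at 3.70 to 3.97 on all 16 other arrays, below the 25th percentile of probe set means (4.43). In peri-hatch livers it was at 6.32, 4.04, 4.16 and 9.42 at E20 and at 5.11, 6.47, 4.03 and 6.36 at D1, so that 3 of the 8 arrays were only marginally above the others. Its ratio of 1.91 ± 0.45 (adjusted p = 0.0057) rested on the remaining 5. None of the 10 pancreas markers was called. SERPINI1, a serine protease inhibitor, was likewise dim, at 4.56 to 7.17 against 3.79 to 4.49. RAB20, a small GTPase, was at 9.45 to 10.51 against 8.26 to 9.26 (ratio 1.23 ± 0.08) with a D1 minus E20 difference of -0.66, under the limit. The unannotated LOC424919 (1.53) and LOC771012 (1.04) were also transient and without overlap. LOC424919 was called by 1 of its 2 probe sets, the smaller ratio being 0.21.

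The lower set held 3 globins and a muscle-type troponin, all without overlap. HBAD, the alpha-D globin, had 10.46, 10.84 and 11.68 in peri-hatch livers and 11.80, 13.34 and 14.11 at the other ages (ratio -2.27 ± 0.15, adjusted p = 4.68e-10). HBA1, an alpha globin and the immediate neighbour of HBAD, had 11.81, 12.57 and 12.83 against 13.12, 14.12 and 14.48 (ratio -1.60 ± 0.12, adjusted p = 1.68e-09). HBBR, a beta-type globin, had 5.49, 5.73 and 6.38 against 6.52, 7.22 and 8.69 (ratio -1.60 ± 0.16, adjusted p = 2.12e-07). In all 3 genes the level fell below both sides and no array overlapped. In HBAD and HBA1, 2 of 3 probe sets each were called lower, the third being at -0.03 in HBAD and 0.05 in HBA1. A further globin, HBE, was not called (-0.46). Its peri-hatch arrays, at 6.48 to 7.04, overlapped the other ages, at 6.55 to 8.08. Globin genes are close copies of each other, so that a probe set can take signal from more than 1 of them.

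TSPO2, a membrane protein of maturing red cells, was lower too, at 4.13 to 4.64 against 4.76 to 7.04 (ratio -1.23 ± 0.10). Of the 14 erythroid markers, 4 were lower (HBA1, HBAD, CA2 and EPB42) and 1, TFRC, the transferrin receptor, was higher, with a median of -0.57. Over all genes the shares were 1.51% lower and 1.32% higher. Of the same 14 markers, 7 were lower and 1 higher than E16 and E18 (median -0.86). Only 2 were lower and none higher than D3 and D9 (median -0.14). Over all genes 2.32% were lower than E16 and E18 and 4.22% lower than D3 and D9. EPB42, a red cell membrane protein, had a ratio of -1.29 against E16 and E18 but only -0.33 against D3 and D9, and CA2, carbonic anhydrase, had -1.29 and -0.30. By age, the mean of the 14 markers ran 8.92 (E16), 8.42 (E18), 7.77 (E20), 7.86 (D1), 8.06 (D3) and 8.13 (D9). The peri-hatch arrays spanned 7.63 to 8.01 and the others 7.95 to 8.94. In whole liver, fewer red cells or their precursors and less RNA per such cell cannot be told apart. TFRC (0.81, adjusted p = 0.0336) had no firm call. It was lost without any 1 of E16 replicate 1, E18 replicates 1 and 2, E20 replicates 2 and 4, D1 replicates 1 and 4 and D3 replicates 2 and 4, with ratios of 0.70 to 0.78. CA2 fell under the limit without E20 replicate 1 (-0.71) or D1 replicate 4 (-0.70).

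TNNC1, troponin C of slow and cardiac muscle, had 5.81, 6.60 and 7.57 in peri-hatch livers and 8.24, 9.01 and 9.52 at the other ages (ratio -2.27 ± 0.17, adjusted p = 3.87e-09). It was the only one of 13 heart and muscle markers called. The mean of that list was 4.99 to 5.34 at E20 and D1 and 5.11 to 6.98 at the other ages, with the top value from D9 replicate 1. TNNC1 was high on all 16 arrays of the other ages and not only on that one, at which it was 9.12.

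**Figure D3:**
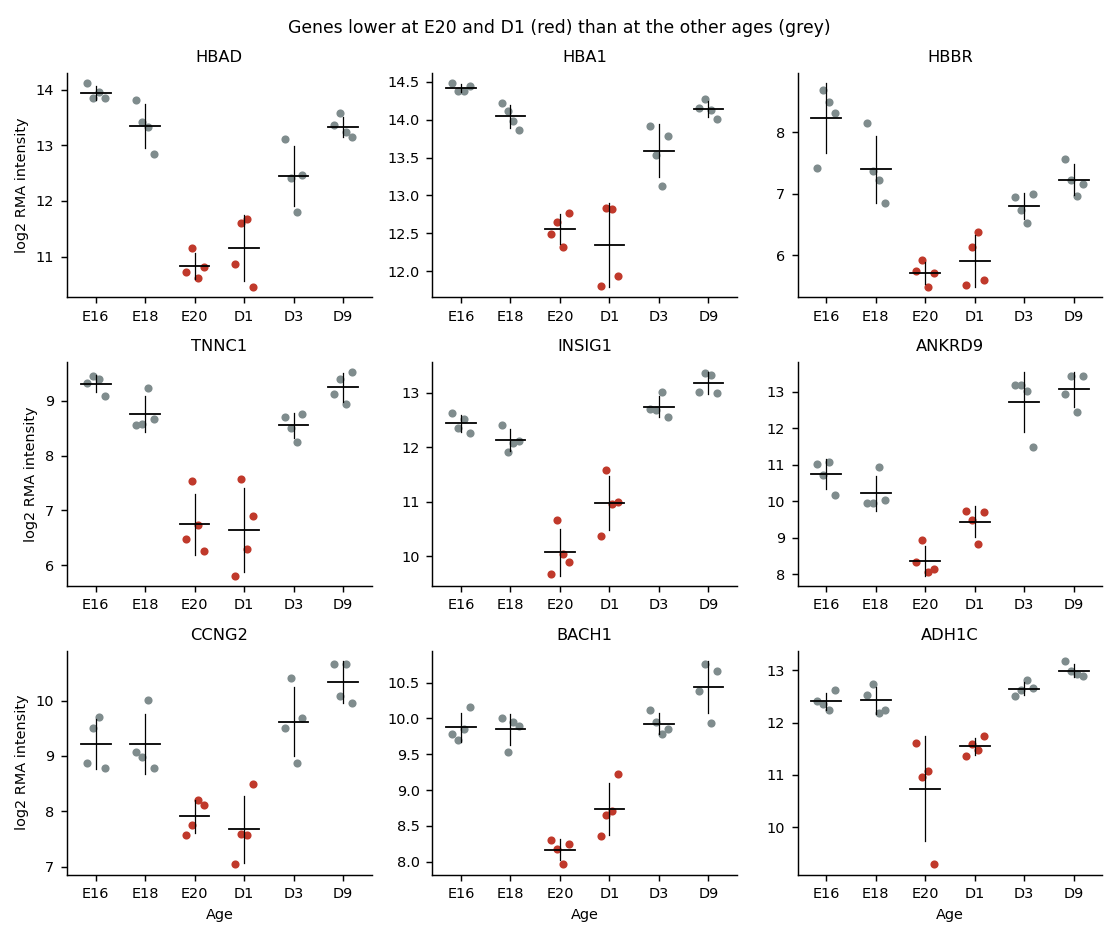
Log2 RMA level of 9 genes on each array by age, drawn as for the higher genes. For every gene shown, the 8 peri-hatch points lie below all 16 others, and in ADH1C 1 of the E20 arrays lies at 9.29, below the other 7.

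INSIG1, the endoplasmic reticulum protein that holds back sterol and fatty acid synthesis when sterol is plentiful, had 9.67, 10.52 and 11.59 in peri-hatch livers and 11.91, 12.59 and 13.37 at the other ages (ratio -2.10 ± 0.12, adjusted p = 6.05e-11). All 3 probe sets were called lower (-2.39 to -2.08). D1 livers, at 10.37 to 11.59, were higher than E20 livers, at 9.67 to 10.67, by 0.90 ± 0.20. Of the 20 genes in the cholesterol synthesis list, which includes INSIG1, 14 were lower than the mean of the other ages (median -1.41), against 1.51% of all genes. In this list 15 were lower than D3 and D9, against 4.22% of all genes, but INSIG1 alone was lower than E16 and E18. NSDHL, a sterol dehydrogenase of the pathway, was the only other member lower than both sides at E20 alone, at 5.16 to 5.52 against 5.30 to 6.83 at E16 and E18, and it was at 7.04 to 8.32 at D1. The list mean was 7.62 and 7.46 in E16 and E18 livers, 7.66 and 8.11 in E20 and D1 livers, and 10.34 and 10.89 in D3 and D9 livers. SQLE, squalene epoxidase, was at 4.85 to 5.28 in peri-hatch livers, 4.83 to 5.35 at E16 and E18 and 9.36 to 11.56 at D3 and D9.

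HMGCS1, the cytosolic HMG-CoA synthase of the same pathway, was the single member higher than the other ages (1.55 ± 0.26). It had 9.73 to 12.57 in peri-hatch livers, 6.54 to 7.57 at E16 and E18 and 11.11 to 12.38 at D3 and D9. Of 23 lipogenesis genes 12 were lower (median -1.21), against 1.51% of all genes, and none was transient. Here 8 were higher than E16 and E18 and 16 lower than D3 and D9, against 2.58% and 4.22% of all genes. SCD, the stearoyl-CoA desaturase, was at 4.75 to 5.43 in peri-hatch livers and 4.76 to 5.31 at E16 and E18, against 10.24 to 11.42 at D3 and D9. PLIN2, a coat protein of lipid droplets, had a ratio of -3.12 against D3 and D9 and 0.28 against E16 and E18.

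ANKRD9, an ankyrin repeat protein of substrate recognition for ubiquitin ligases, had the lowest ratio of all transient genes. It had 8.05, 8.88 and 9.72 in peri-hatch livers and 9.95, 11.28 and 13.43 at the other ages (ratio -2.78 ± 0.21, adjusted p = 2.35e-09), a difference of -1.58 from the earlier and -3.98 from the later ages. CCNG2, a cyclin that accompanies cell cycle arrest, had 7.04 to 8.50 against 8.79 to 10.67 (-1.80 ± 0.20). BACH1, a repressor regulated by heme, had 7.96 to 9.23 against 9.53 to 10.76 (-1.57 ± 0.10), and 3 of its 5 probe sets were called. MAP3K7CL, the neighbour of BACH1, was also transient (-2.11 ± 0.19), with D9 livers at 9.20 to 10.31 far above all others. FBXO9, a ubiquitin ligase subunit, had 8.58 to 9.11 against 9.68 to 10.63 (-1.20 ± 0.07), with the smallest error of the lower genes described here. It was called by 2 of its 3 probe sets, the third being at 0.03.

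Further lower genes included enzymes, a transporter and a secreted peptide. ADH1C, an alcohol dehydrogenase, had 9.29, 11.43 and 11.74 against 12.18, 12.62 and 13.18 (-1.48 ± 0.17). It was called by 2 of its 4 probe sets, the weakest ratio being -0.17. LOC396380, annotated by RefSeq with the synonym GSTAL3 and placed within 4 genes of GSTA2, had 9.45 to 11.32 against 11.96 to 13.04 (-1.92 ± 0.16). GSTA2, a glutathione transferase, was transient as well (-1.87 ± 0.11), but overlapped at D1. It was the only transient member of the 40 NRF2 targets and antioxidant enzymes, of which 1 was higher and 2 were lower than the other ages (median -0.02). SLC2A5, a fructose transporter, was at 6.86, 8.25 and 9.44 in peri-hatch livers and 8.27, 10.46 and 11.31 at the other ages (-2.05 ± 0.24), with a larger difference from the earlier ages (-2.88) than from the later (-1.23). G0S2, an inhibitor of triglyceride lipase, was transient (-1.90 ± 0.27), with -1.42 against E16 and E18 and -2.38 against D3 and D9. Its ranges overlapped, and E20 livers, at 8.59 to 11.07, were close to E16 livers, at 9.24 to 11.15. D1 livers were at 8.43 to 9.34 and E18 livers at 10.91 to 11.91. LEAP2, a liver peptide that opposes ghrelin, was transient too (-1.68 ± 0.12), with -0.82 and -2.54. Its D1 livers, at 10.82 to 11.51, overlapped those of E16 and E18 (11.08 to 11.86). They were higher than E20 livers, at 9.40 to 10.61, by 1.2.

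PIWIL1, a germline Argonaute protein, and its neighbour RIMBP2, a presynaptic scaffold protein, were lower together. PIWIL1 was at 5.49 to 6.40 against 6.61 to 8.44 (-1.47 ± 0.18) and RIMBP2 at 4.41 to 4.92 against 5.45 to 6.83 (-1.43 ± 0.16), both without overlap. C2orf88 (-1.46 ± 0.28) was also without overlap, with 4.97 to 5.54 against 5.55 to 8.85, so that the highest peri-hatch array and the lowest other array were almost equal. 2 beta-defensins, antimicrobial peptides placed with 2 genes between them, went opposite ways. AvBD13 was higher (1.36 ± 0.22) and AvBD10 was lower (-1.78 ± 0.11), and both were called against both sides. In both genes the ranges overlapped those of the other ages and the difference was larger at E20. For AvBD13, E18 livers, at 11.07 to 12.27, were already at the level of D1 livers, at 10.72 to 12.15. The E16 livers were lower, at 9.20 to 10.74. The difference of D1 from E20 was -1.32 in AvBD13 and 1.92 in AvBD10, both called. At D1 alone AvBD13 was not called against the mean of the 4 other ages (0.70), whereas AvBD10 was (-0.82).

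E20 and D1 were not alike in all respects. D1 livers had 447 genes higher (3.44%) and 297 genes lower (2.28%) than E20 livers. Among the transient genes, 12 of the 56 higher genes were lower at D1 than at E20 and 3 were higher at D1, with 41 not called. Of the 47 lower genes, 9 were higher at D1, 3 were lower and 35 were not called. At E20 alone, 95 genes were higher (0.73%) and 177 lower (1.36%) than both the earlier and the later ages. At D1 alone, 68 were higher (0.523%) and 45 lower (0.346%). Of the 56 and 47 genes, 37 and 35 were called against the mean of the 4 other ages at each of E20 and D1 taken alone.

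**Figure D4:**
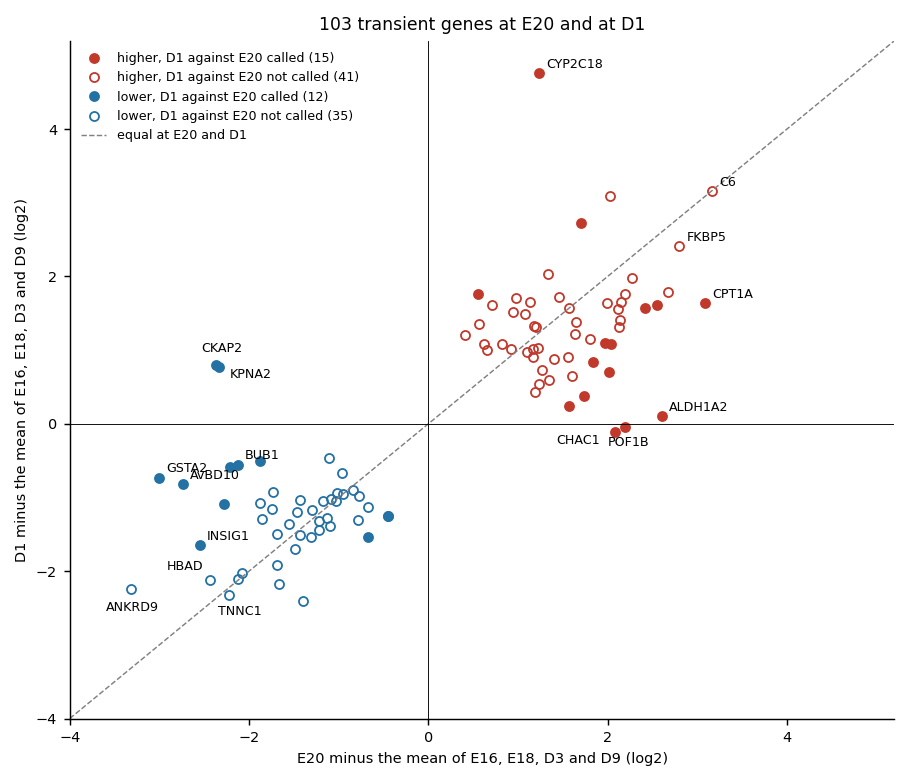
The 103 transient genes by their log2 ratio to the mean of E16, E18, D3 and D9 at E20 (x axis) and at D1 (y axis), with the dashed line marking equal ratios and filled points marking genes called between D1 and E20. Most points lie near the line, whereas CYP2C18 lies above it and ALDH1A2, POF1B and CHAC1 lie at about 0 at D1.

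CYP2C18, a drug-metabolising cytochrome P450, was the transient gene with the largest excess at D1. It had 10.30, 11.71, 11.74 and 10.24 at D1 and 7.43, 6.51, 8.23 and 7.73 at E20, against 5.46 to 7.74 at the other ages. The difference of D1 from E20 was 3.52 ± 0.38 (adjusted p = 8.84e-07), and all 4 D1 arrays were above every other array. Its E20 arrays overlapped those of D9.

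The reverse was seen in ALDH1A2, an enzyme that makes retinoic acid, called transient on its brightest probe set. Of its 3 probe sets 2 were called higher than the other ages, the third being at 0.04. ALDH1A2 was at 5.50, 5.47, 5.60 and 6.55 at D1, against 8.62, 7.44, 8.75 and 8.33 at E20. The difference was -2.50 ± 0.27 (adjusted p = 8.78e-07), and its D1 level was 0.105 above the mean of the other ages. POF1B (-2.23 ± 0.22) and CHAC1, an enzyme of glutathione breakdown induced by cell stress (-2.19 ± 0.43), had the same course, with D1 ratios to the other ages of -0.04 and -0.10. CYP1A1, a P450 induced by aryl hydrocarbon receptor ligands, was also lower at D1 than at E20 (-1.36), as was CPT1A (-1.45). At D1 alone CYP1A1 was not called against the mean of the 4 other ages (0.38), whereas CPT1A was (1.64). CPT1A was not transient at D1 alone, and its D1 arrays, at 8.46 to 9.41, overlapped those of E16 and E18 (7.76 to 8.97). None of these 5 genes was called higher than both sides at D1 alone.

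Single genes of the endoplasmic reticulum differed between D1 and E20, but most of the list was not called. Of its 31 genes 2 were higher and 3 lower at D1 than at E20 (median 0.08), against 3.44% and 2.28% of all genes. XBP1, a transcription factor of the unfolded protein response, was at 12.18 to 12.54 at E20, against 10.50 to 11.90 at the other ages, and its D1 level of 10.97 to 11.40 was lower than at E20 (difference -1.21 ± 0.16). ERO1B, which forms disulfide bonds, was transient with both ages together (0.97 ± 0.12), and its difference of D1 from E20, -0.748, was just under the limit and not called. HERPUD1, of the degradation machinery of this organelle, was instead highest at D1, at 9.76 to 10.28, against 8.55 to 9.30 at E20 and 7.18 to 9.55 at the other ages. With E20 and D1 together, 4 of the 31 were higher and none was lower than the other ages (median 0.28), while 10 were higher than E16 and E18. Over all genes, 1.32% were higher and 1.51% lower than the other ages, and 2.58% were higher than E16 and E18.

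The cell cycle list showed the widest gap between D1 and E20. Of 68 genes, 54 were higher at D1 than at E20 and 1 was lower, against 3.44% and 2.28% of all genes. The median difference was 1.77. MKI67, a proliferation marker, was at 10.58, 10.44, 10.48 and 10.99 at D1 and 8.16, 7.08, 7.04 and 7.39 at E20 (difference 3.20 ± 0.22, adjusted p = 2.5e-09). It was at 8.71 to 10.97 at the other ages, so that E20 was below all of them, while D1 lay at the upper end of their range, with replicate 4 just above the highest array, D3 replicate 1. CDK1, the mitotic kinase, differed by 2.88 ± 0.19, and AURKB, a kinase of chromosome segregation, by 3.35 ± 0.24. E20 was lower than both the earlier and the later ages in 37 of the 68 genes, against 1.36% of all genes.

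The list mean ran 8.40 (E16), 7.56 (E18), 6.99 (E20), 8.73 (D1), 8.92 (D3) and 7.79 (D9). The 4 E20 arrays (6.88 to 7.23) lay below all others (7.40 to 9.00). With E20 and D1 averaged, only 3 members (AURKB, BUB1 and CKS2) were called lower and none higher (median -0.29), since the 2 ages went opposite ways. BUB1, a checkpoint kinase, was lower than both sides (-1.34 ± 0.15), at 8.48 to 9.00 at D1 and 6.27 to 7.62 at E20. Its D1 livers lay within the range of E16 and E18 (8.29 to 9.26). At D1 alone it was not called against the mean of the 4 other ages (-0.56). With both ages together BUB1 was called lower than the other ages by 2 of its 3 probe sets, the weakest ratio being -0.03. KPNA2, a nuclear import receptor, and CKAP2, a spindle protein, were called transient and lower (-0.78 each), although at D1 they were higher than the other ages by 0.78 and 0.80. In these 2 genes the sign belonged to E20 alone. Being close to the limit, AURKB, CKAP2 and KPNA2 fell under it without single arrays: AURKB without E16 replicate 4, E20 replicate 2 or 3, D1 replicate 3 or D9 replicate 3, CKAP2 without E16 replicate 4, E20 replicate 2 or 3, D1 replicate 1 or D9 replicate 3, and KPNA2 without E20 replicate 4 or D9 replicate 3. Their ratios then lay between -0.75 and -0.71.

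**Figure D5:**
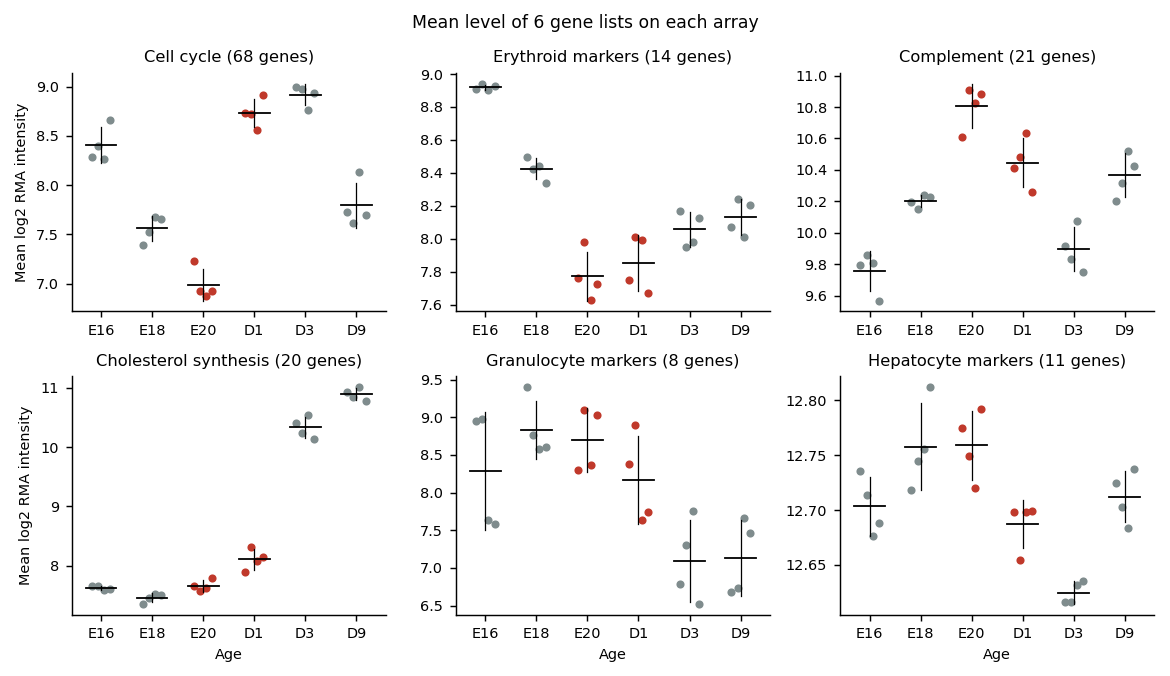
Mean log2 RMA level over the members of 6 gene lists on each array by age, with E20 and D1 in red, a bar for the mean and a line for the SD of 4 arrays. The cell cycle list is lowest at E20 and close to D3 at D1, the complement list is highest at E20, and cholesterol synthesis is low up to D1 and high at D3 and D9.

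Other genes were higher at D1 than both the earlier and the later ages, and not at E20. ABCG8 and ABCG5, which together export sterol into bile, were at 9.16 to 9.50 and 9.37 to 10.32 at D1, against 6.27 to 7.29 and 8.01 to 8.79 at E20. Their ratios at D1 to the 4 other ages were 2.59 (adjusted p = 1.93e-06) and 2.13 (adjusted p = 0.000546). ABCG8 at D1 was above every other array, D9 replicate 1 being the nearest at 8.92, and it was also higher at D3 and D9 (6.49 to 8.92) than at E16 and E18 (4.93 to 6.26). CYP8B1, which makes cholic acid, was higher at D1 than at the other ages by 1.82, and FGF19, a feedback signal of bile acid synthesis, by 1.59. FGF19 was at 6.65 to 7.46 at D1, a level also seen in 3 of the E16 livers (7.38 to 7.68), and at 4.30 to 4.80 at E20. Of 19 genes of bile acid synthesis and transport, 8 were higher and 1 was lower at D1 than at E20 (median 0.53), against 3.44% and 2.28% of all genes.

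PCK1, the cytosolic enzyme that commits carbon to glucose production, went the other way. It had 6.19, 5.88, 5.42 and 5.47 at D1 and 7.18, 10.04, 9.43 and 9.77 at E20, a difference of -3.37 ± 0.65 (adjusted p = 0.00143). D1 was also lower than the 4 other ages, at 4.93 to 11.53, with a log2 ratio of -2.78 (adjusted p = 0.000919). The lowest value of the other ages came from E18 replicate 2, 1 of the arrays that stood apart, and without it the lowest was 6.78, above all 4 D1 arrays. With E20 and D1 averaged PCK1 was not called (-1.10, adjusted p = 0.0867), but it was called lower without E18 replicate 2 (-1.29, adjusted p = 0.0117) or without E16 replicate 2 (-1.22, adjusted p = 0.0452). Of the 19 gluconeogenesis genes measured, 1 was higher and 2 were lower at D1 than at E20, and 16 were not called (median -0.06). Over all genes the shares were 3.44% higher and 2.28% lower. With E20 and D1 averaged, 1 of the 19 was higher and 1 lower than the other ages (median 0.05).

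Granulocyte markers moved with the contrast as well. Of 8 such genes, LECT2, AvBD7, AvBD1 and CATH1 were higher in peri-hatch livers than at the other ages, against 1.32% of all genes. No such marker was lower, and the median of the 8 was 0.73. None was called against E16 and E18 (median -0.01) and 5 were higher than D3 and D9 (median 1.61), so they were shared with the embryo and not transient. LECT2 was at 8.68 to 10.74 in peri-hatch livers and 5.47 to 11.19 at the other ages. AvBD1 and CATH1 were each called by 1 of 2 probe sets, the smaller ratios being 0.12 and 0.25. The array means were 7.64 to 9.10 at E20 and D1 and 6.52 to 9.40 at the other ages. Without both arrays that stood apart, 2 of the 8 were higher. CATH1 (1.07, adjusted p = 0.0324) lost its call without any 1 of the 4 E20 arrays except replicate 3, or without D1 replicate 1 or 2 (0.92 to 1.09), and AvBD1 (1.17) and LECT2 (1.37) without D1 replicate 2 (0.98 and 1.21). Their part in the immune genes described above was not tested.

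In several large groups no member was called in peri-hatch livers against the other ages by the limma test with all arrays. They comprised 59 cytosolic ribosomal proteins (median -0.00), 48 genes of the respiratory chain and ATP synthase (0.10), 31 of the proteasome (-0.03), 36 heat shock proteins and chaperones (0.10) and 38 of ribosome biogenesis (0.27). At an unadjusted p under 0.05 there were 6, 27, 10, 15 and 27 of these genes in the same order. At an adjusted p of 0.05 or less there were 4, 14, 2, 9 and 18, which missed a call only by the size of their ratio. The largest log2 ratio in any of the groups was 0.73 in size. In ribosome biogenesis 8 genes were higher than E16 and E18 and none was called against D3 and D9 (median 0.00). The interferon response list had 1 of 22 genes higher and 3 lower (median -0.25), with 9 lower than D3 and D9.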

How the data were processed

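Liver RNA of 24 male chickens was hybridized by the authors to Affymetrix Chicken Genome Arrays, and the deposited values were log2 intensities after their RMA background correction, quantile normalization and summary per probe set. Genome build and scanner settings were not given in the sources used here. The 96 Affymetrix control probe sets were left out, and symbols came from the platform annotation, in which 11094 probe sets have none and 177 have several. Those were fitted with the rest but not described.

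limma 3.58.1 (R 4.3.3) was used to fit a linear model of 1 mean per age, with empirical Bayes variances (18 residual and 3.81 prior degrees of freedom), without a block. Contrasts weighted each age equally. p-values were Benjamini-Hochberg adjusted over 38439 probe sets, and a call needed an adjusted p of at most 0.05 and an absolute log2 ratio of at least 0.75. Of these probe sets, 8371 had an unadjusted p under 0.05 in peri-hatch against the other ages. Precision is limited by the 4 arrays per age. The limma fit was checked on simulated data. Python 3.11.15, pandas 2.3.3, numpy 2.4.6 and matplotlib 3.10.9 were used for summaries and plots. RefSeq annotation served only for names and for the order of neighbouring genes, with 102 of 103 transient genes matched.

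Members and gene lists were chosen with earlier results of these data known. Named genes were the 15 highest and the 15 lowest transient genes whose ranges did not overlap and whose higher side was above the 25th percentile, up to 6 called members per list with others needed to describe it, the 5 largest and the 5 smallest differences of D1 from E20 among transient genes, and markers of other cells. Some genes were chosen after their values were seen. They were genes called in opposite directions at E20 and D1 (MKI67, CDK1) and genes called at only 1 of these ages (PCK1, ABCG8, ABCG5, CYP8B1, FGF19, XBP1, HERPUD1). The others were neighbours of named genes (TULP1, LHFPL5, MAP3K7CL), AvBD13, SLC2A5, G0S2, LEAP2, APOA5, HMGCS1, C3, C5, C1QA, C1QB, C1QC, ALB, HBE, HINTW, NPPA and ACTC1.

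By the study's methods each of 4 hybridization days held 1 replicate of every age. The replicate number in the titles was taken as the day, which the methods do not spell out. Deviations from the age means correlated at 0.071 on average for 60 same-day array pairs and at -0.0234 for 180 pairs that shared neither day nor age. Alternatives were the day as replicate block, cyclic loess, centring on ribosomal proteins, a filter on dim probe sets, trended robust variances, array weights, plain groups, each age alone, other limits, other choices of probe set, each array left out, and E18 replicate 2 and D9 replicate 1 left out together.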

Additional observations from a re-analysis of the deposited data

Results flagged for a closer look

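For each of the 82 genes with full values, the most distant of the 4 arrays of each age was compared with the other 3, and 29 of 492 such groups had a gap that was wide relative to the group's range. Chance alone marks about 1 in 20 groups.

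At E20, replicate 2 was the lowest array for KLF9 (8.03, the others at 8.96 to 9.14), MYC (9.09, the others at 9.68 to 9.77) and CEPT1 (11.5, the others at 12.31 to 12.40), and replicate 1 was the highest for CDK1 (9.21, the others at 8.36 to 8.45). At D1, replicate 4 was the highest for ALDH1A2 (6.55, the others at 5.47 to 5.60), MAP3K7CL (6.07, the others at 5.31 to 5.35) and KPNA2 (11.54, the others at 11.06 to 11.11), and replicate 3 for CEPT1 (11.89, the others at 11.66 to 11.67).

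At E16, FGF19 was at 5.25 in replicate 4 (the others at 7.38 to 7.68), ABCG5 at 7.06 in replicate 2 (the others at 7.66 to 7.74) and KPNA2 at 11.28 in replicate 4 (the others at 10.86 to 10.92). At E18, PCK1 was at 4.93 in replicate 2 (the others at 7.78 to 8.20) and SERPINI1 at 4.49 in the same array (the others at 4.09 to 4.16). E18 replicate 1 was the lowest for C1S (10.11) and CEPT1 (9.25), replicate 3 the highest for ANKRD9 (10.94), and replicate 4 the lowest for KLF9 (4.81), TSPO2 (4.78) and PLIN2 (9.62).

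At D3, replicate 4 was distant for ANKRD9 (11.48, the others at 13.01 to 13.18), RIMBP2 (5.49) and CEPT1 (11.05), and replicate 3 for LOC424919 (6.95) and LOC771012 (12.19). At D9, replicate 3 was distant for LOC424919 (6.74), LEAP2 (13.18) and DIO2 (10.82, the others at 12.18 to 12.45), replicate 2 for LOC771012 (13.17) and replicate 4 for FBXO9 (9.75).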

How the results depend on the processing

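Counts here are over the 27168 probe sets with a single symbol, of which 274 were higher and 282 lower in peri-hatch livers than at the other ages, 1001 were called against E16 and E18, 1464 against D3 and D9 and 1127 between D1 and E20, with 90 transient higher, 73 transient lower and 57 transient without overlap. With the replicate block (hybridization day, paired by number) these were 274, 281, 1002, 1471, 1166, 90, 73 and 57, and it changed no other call of a named gene. Leaving out each array in turn gave 257 to 293 higher, 266 to 313 lower, 948 to 1067 against the earlier ages, 1426 to 1507 against the later ages, 979 to 1284 between D1 and E20, 85 to 95 and 63 to 77 transient, and 54 to 66 without overlap. With plain groups, 165 were higher and 110 lower, and D1 against E20 could not be given. With E20 alone, 485 were higher, 595 lower, 2337 called against the later ages, 164 and 246 transient and 236 without overlap. With D1 alone, 1767 were called against the earlier ages and 104 were without overlap. At a log2 limit of 1, the counts were 149 higher, 172 lower, 510 against the earlier and 847 against the later ages, 46 and 37 transient and 615 between D1 and E20. With adjusted p alone they were 1826, 1688, 5163, 5852, 523 and 426, and 2923. Cyclic loess gave 257 higher and 298 lower, and centring on ribosomal proteins, which moved the median of all probe sets to 0.025, gave 288 and 269.

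Of 2952 values for the 82 genes, 2846 kept direction and call, 87 lost the call, 9 gained it and 10 turned. At E20 alone ABCG8 was at -0.156, FGF19 at -0.946 and PCK1 at 0.587 against the other ages. At D1 alone AURKB was at 0.895, CDK1 at 0.886, CKAP2 at 0.798, KPNA2 at 0.775, MKI67 at 0.998, CHAC1 at -0.104 and POF1B at -0.037. These turns follow from taking the ages apart. When all probe sets of a gene were averaged, C8B (0.437), C8A (0.717), POF1B (0.457), NT5C2 (0.64), FBXO9 (-0.749), AvBD1 (0.642), CATH1 (0.66) and TFRC (0.63) were under the limit. Dim genes such as REG1A and TULP1 were near the floor of the array at the other ages, so their ratios are compressed by an unknown amount.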

Other observations

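Of the 11094 probe sets without a symbol, 12 were higher and 12 lower in E20 and D1 livers than both the earlier and the later ages, and of the 177 with several symbols 2 were lower and 0 were higher.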
